A study of Mus musculus with 6 samples.

Results

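The comparison described here was that of total epidermal cells from Scd1-/- mice and from wild-type (WT) mice at postnatal day 21 (P21), by RNA sequencing. Scd1-/- denotes a whole-body deletion of stearoyl-CoA desaturase 1, carried by the B6.129-Scd1tm1Ntam/J strain, and the WT mice were littermate controls. Both groups are labelled C57BL/6, female and day 21, with no treatment, whereas the study's text places the experiment at P19. The series held 6 libraries, of which 1 per genotype came from P21 and 2 per genotype (1 labelled female, 1 labelled male) from P1. The skin was digested to release the epidermal cells, and RNA was taken with Trizol, so each library mixed keratinocytes of the epidermis and hair follicle with the other cells of the digest. Every gene with 50 or more counts in either P21 library was included, which gave 12972 of the 54532 genes in the table, and the genes were grouped by cell compartment and by function.

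Scd1 is the enzyme that puts a double bond into saturated fatty acids, chiefly making oleate and palmitoleate, and in mouse skin it is known above all from the sebaceous gland. The epidermis renews itself from basal keratinocytes, which express Krt5 and Krt14 and attach to the basement membrane, through spinous cells with Krt1 and Krt10, to granular and cornified cells that build the barrier from loricrin, filaggrins, late cornified envelope proteins and ceramides. After wounding, barrier loss or inflammation, keratinocytes switch on another set of keratins, Krt6, Krt16 and Krt17, together with alarmins. Around the age sampled, hair follicles regress and come to rest before they grow again.

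With 1 library per genotype at P21, no genotype test was made, and no p-value is given for this age. A gene is described as higher or lower when its ratio, Scd1-/- over WT, passed 2-fold after scaling by the trimmed mean of M values (TMM), and levels are given as CPM, read counts divided by the scaled size of their library. The interval that follows a log2 ratio is its 95% interval (Clopper-Pearson) from counting error alone, and it holds nothing of the spread between mice. The totals were 14795379 counts in the WT and 17419121 in the Scd1-/- library. Of the 12972 genes, 2758 (21.3%) were higher and 2110 (16.3%) lower, 37.5% in all, and the median log2 ratio was 0.15. At the edge of the minimum, the 39 genes whose larger count was 50 had a median of -0.29 and the 60 genes at 49, left out, one of -0.07. Among genes with a unique name, 615 reached 50 counts in the Scd1-/- library alone and 1166 in the WT library alone. For such genes, in every list below, the minimum itself could set the direction. Those 2758 genes held 17.2% of the WT counts and 45.3% of the Scd1-/- counts, whereas the 2110 held 18% and 3.72%. At P1, libraries of the same genotype and different labelled sex lay at least 2-fold apart for 1.55% of genes in WT and for 0.63% in Scd1-/-, which is the only spread between samples of a group in the series. The median absolute log2 ratio was 0.76 between the P21 libraries and from 0.12 to 0.24 between pairs of P1 libraries. Scaling by library size alone moved the median of all genes by -0.44 and gave 1469 higher and 3436 lower genes (29.9% of calls higher, against 56.7%), and upper quartile scaling moved it by -0.13 (2380 higher, 2441 lower, 49.4% of calls higher), so the split between higher and lower depended on the scaling.

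Several properties of the 2 libraries moved with genotype and stand beside all that follows. Both P21 libraries, although labelled female, held reads of Y-linked genes and of Xist, the X-inactivation RNA. For Ddx3y the counts were 631 in WT and 651 in Scd1-/-, and for Xist they were 21169 and 3400. The P1 libraries labelled female had at most 2 counts of each of the 4 Y-linked genes inspected, and the P1 libraries labelled male had at most 3 of Xist. The labelled sex thus did not match either P21 library, and the part of sex in any ratio was not tested. Ratios also ran with gene length: the median log2 ratio of protein-coding genes was 0.81 in the shortest of 5 bins of equal size (up to 2518 bases), then 0.45, 0.18, -0.03 and, in the longest, -0.33. The same medians ran from 0.08 to -0.03 between the genotypes in the P1 libraries labelled female, from -0.09 to 0.13 in those labelled male, and from -0.23 to 0.20 between the WT libraries labelled female and male. Long noncoding RNAs (lincRNA) had a median of -1.04 and processed pseudogenes, short copies of mRNAs, one of 1.21. Malat1 and Neat1, noncoding RNAs that stay in the nucleus and were chosen here after their values were seen, were at 1907 and 3058 CPM in WT and at 413 and 621 CPM in Scd1-/-. Whether RNA quality or the share of nuclear RNA set any of these ratios was not tested. A ratio adjusted for length is given beside some list medians, among them the 5 that it moved outside their 95% intervals over genes. It is the log2 ratio minus the median of genes of like length, and was chosen after seeing the data. Other medians moved within their intervals, such as those of Langerhans cell genes (0.09 to -0.58) and of antioxidant genes (1.13 to 0.56).

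**Figure D1:**
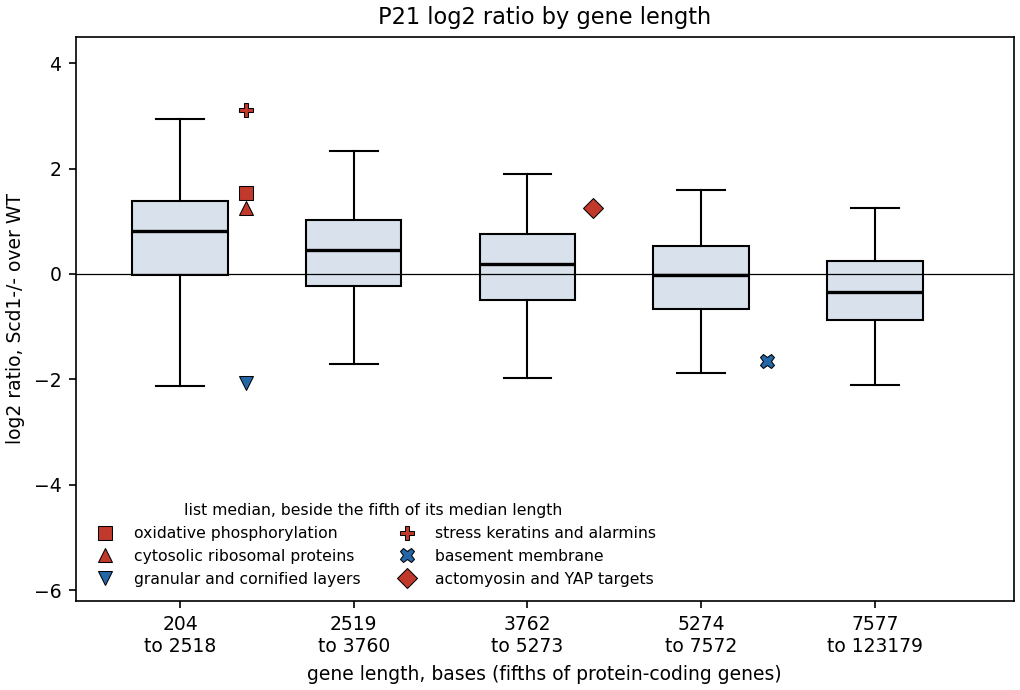
Log2 ratio of P21 expression, Scd1-/- over WT, by gene length in bases, in 5 bins of equal size over 12015 protein-coding genes (boxes, quartiles with the median as a line; whiskers, 5th to 95th percentile). The median drops from 0.81 in the shortest to -0.33 in the longest bin, and the coloured symbols place the medians of 6 gene lists beside the bin that holds their median length.

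Scd1 itself checked the labels. It lies on chromosome 19 (44394451 to 44407709, GRCm38, minus strand) and had 2810 counts in WT and 0 in Scd1-/-, at least 811-fold lower when 3 counts are taken as the limit that a count of 0 allows. Of the other desaturases of the family, Scd2 was at 43.7 CPM in WT and 175 CPM in Scd1-/- (log2 ratio 2.0, 1.88 to 2.12) and Scd3, a sebaceous enzyme, at 6.14 and 3.95 CPM. Reads that the near-identical Scd genes share could be split between them by the authors' counting. At P1 the log2 fold changes (2 libraries each, edgeR's quasi-likelihood test) were 0.09 ± 0.19 (SE, adjusted p = 1) for Scd2 and -3.21 ± 0.23 (SE, adjusted p = 0.00173) for Scd3.

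**Figure D2:**
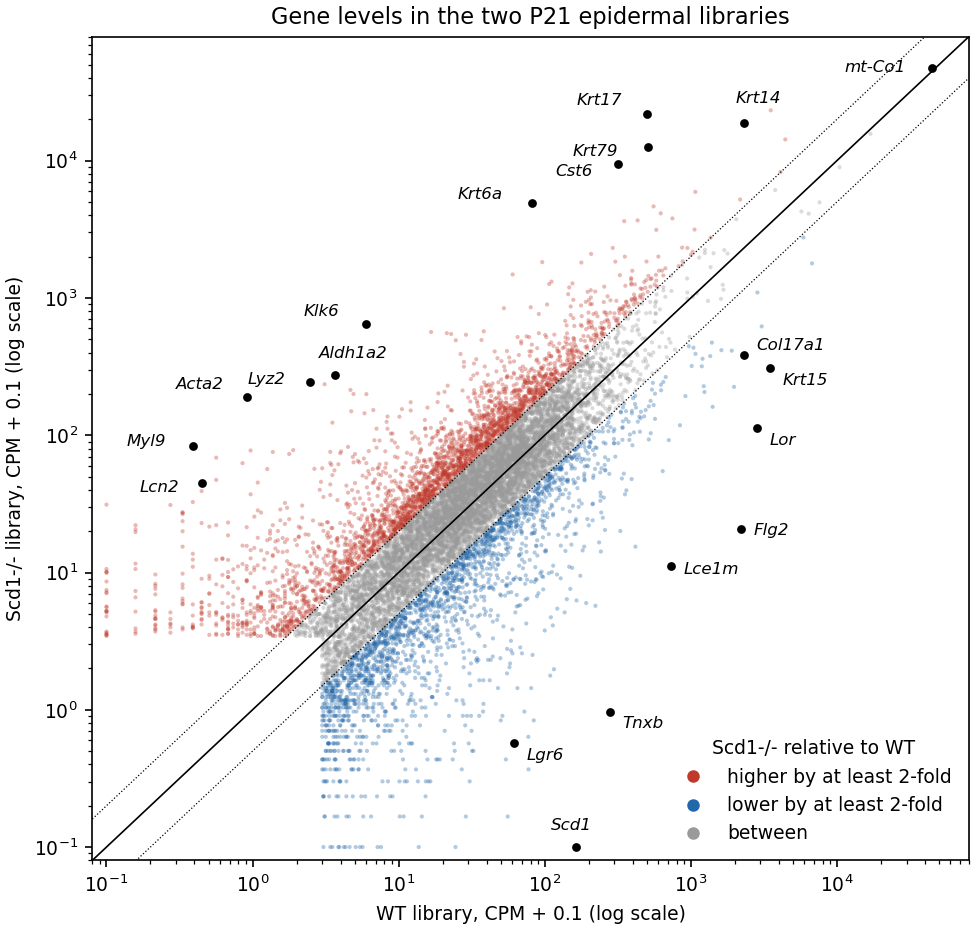
Level of each of the 12972 genes in the WT library (horizontal) and the Scd1-/- library (vertical), in CPM plus 0.1 on log axes. Red and blue points passed 2-fold (2758 higher, 2110 lower), dotted lines mark 2-fold, and black points are genes named in the text, with Krt17, Krt79, Krt14 and Krt6a far above the diagonal and Lor, Flg2, Lce1m and Krt15 far below it.

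The keratins of stressed epidermis were among the most abundant genes that were higher in Scd1-/-. Of the list of stress keratins and alarmins, 18 of 37 measured genes had 50 or more counts; 14 were higher and 3 lower, with a median log2 ratio of 3.12 (2.11 to 4.62, the 95% interval of the median over genes) against 0.15 over all genes, and of 2.04 after adjustment for length. Of the 18, 6 reached 50 counts in the Scd1-/- library alone, and with a minimum of 1 count the median over 34 genes was 1.17. Krt17 (chromosome 11, 100256217 to 100261029, minus strand) was at 503 CPM in WT and 21995 CPM in Scd1-/- (log2 ratio 5.45, 5.42 to 5.48). It passed Krt14 there to become the keratin of highest level per kilobase, at 14181 CPM per kilobase, from 324 in WT. Krt6a, its usual partner in activated keratinocytes, was at 81.9 and 4888 CPM (5.90, 5.82 to 5.98), and Krt16 and Krt6b had log2 ratios of 3.74 and 3.50. Reads of near-identical keratins (Krt6a with Krt6b, Krt14 and Krt16 with Krt17 and Krt42) may have been split or dropped in counting, so their separate ratios are less certain than their sum.

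Keratin genes together took 3.12% (3.11 to 3.13) of the WT counts and 6.94% (6.93 to 6.95) of the Scd1-/- counts. Of 26 keratins with 50 or more counts, 14 were higher and 9 lower. The basal pair Krt14 and Krt5 stood at 2307 and 4438 CPM in WT and at 18712 and 14296 CPM in Scd1-/- (log2 ratios 3.02 and 1.69). Their neighbour in the basal layer and bulge, Krt15, moved the other way, from 3491 to 307 CPM (-3.51, -3.55 to -3.46). The suprabasal keratins were Krt10 at 5902 and 2760 CPM (-1.10), Krt77 at 6766 and 1787 CPM (-1.92) and Krt1 at 1696 and 2233 CPM (0.40), so of the paired keratins Krt10 was lower and Krt1 lay within 2-fold (-0.05 under library size scaling).

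**Figure D3:**
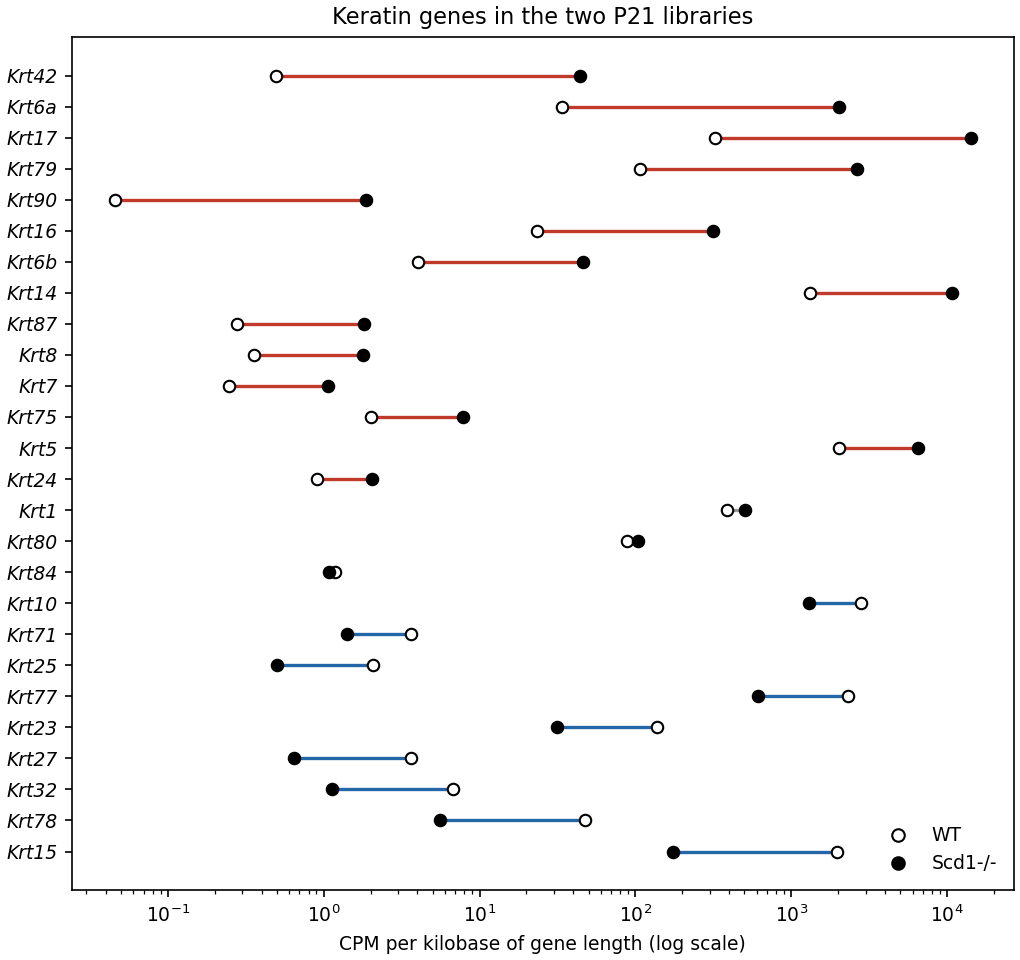
Keratin genes with 50 or more counts at P21, as CPM per kilobase of gene length on a log axis, open circles for WT and filled circles for Scd1-/- (red lines higher, blue lines lower by at least 2-fold). Krt17, Krt6a, Krt79 and Krt14 were higher in Scd1-/-, and Krt15, Krt78, Krt77 and Krt10 were lower.

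All 4 alarmins of the same list with 50 or more counts had fewer than that in WT. Lcn2, a siderophore-binding antimicrobial protein, had 6 counts in WT and 667 in Scd1-/- (log2 ratio 6.57, 5.87 to 8.46). S100a8 and S100a9, which form calprotectin, had 9 and 10 counts in WT and 69 and 82 in Scd1-/-. Of 5 stefins and serpins, protease inhibitors, 3 were higher and 2 lower: Stfa3 was at 3.42 and 123 CPM and BC100530 at 5.74 and 144 CPM, whereas Serpinb2 was at 187 and 47.7 CPM (-1.97) and Serpinb3b at 72.6 and 30.0 CPM (-1.27). In contrast, the interleukin-1 family member Il1f9, an inducible keratinocyte cytokine, was at 56.2 and 7.03 CPM (-2.98), and of the small proline-rich proteins 3 of 3 measured above the minimum were higher. The calprotectin genes therefore differed by a large ratio at a low level, whereas the keratins differed at the top of the range.

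Lower expression of the terminal barrier genes accompanied these keratins. Of 31 granular and cornified layer genes, 19 were lower and 4 higher (median log2 ratio -2.06, -3.47 to -0.71). Flg2, a filaggrin relative of the upper granular layer, was at 2208 CPM in WT and 20.7 CPM in Scd1-/- (-6.73, -6.90 to -6.58). Loricrin (Lor), the main protein of the cornified envelope, was at 2825 and 113 CPM (-4.65), hornerin (Hrnr) at 329 and 19.9 CPM (-4.04) and the late cornified envelope gene Lce1m at 728 and 11.1 CPM (-6.02). Tgm3, a crosslinking transglutaminase, was lower too (67.9 and 2.74 CPM), whereas Tgm1 and Casp14 were at nearly equal levels in both libraries, with log2 ratios of 0.04 and -0.00. Of the higher genes, Klk7, a protease that sheds cornified cells, was at 304 and 1838 CPM (2.59) and Sprr4 at 57.0 and 368 CPM (2.69). The ratios of the short genes in this list went against the trend with length, and the median after adjustment was -2.97.

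Most of these genes lie in the epidermal differentiation complex, a cluster on chromosome 3 (90668978 to 93564643, first to last member) whose grouping here was made after the values were seen. Of its 40 genes with 50 or more counts, 26 were lower and 10 higher. All 13 Lce genes among them were lower (log2 ratios -6.02 to -1.74), as were 4 of the 5 fused S100 genes (Flg, Flg2, Hrnr, Rptn, Tchh), while all 4 Sprr genes (2.11 to 4.19) and all 4 S100 genes (1.09 to 3.00) were higher. Lce1d, Lce1e, Lce1h, Lce1i, Lce1j, Lce1l and Lce6a reached 50 counts in the WT library alone. So did Prr9, Gm43735, Gm5849, Gm35439 and 2210017I01Rik, whereas Sprr2a1, S100a8 and S100a9 reached it in the Scd1-/- library alone. For all of these the minimum largely fixed the direction. Of 13 measured Sprr1 and Sprr2 genes, 10 had under 50 counts in both libraries. The cluster thus did not move as a block, and genes of either direction lie next to each other.

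The promoters of 3 of these genes, Lor and Flg2 (lower) and Sprr1b (higher, 57 and 936 counts, 4.19), are shown because the letters of the AP-1 site TGANTCA, which many epidermal promoters carry, were found in all 3. The sequences are the 250 bases before the RefSeq start (GRCm38.p6), 5′ to 3′ on the gene's strand, with the match in capitals; Lor is at chr3:92083143-92083392, minus strand, Flg2 at chr3:93197023-93197272, plus strand, and Sprr1b at chr3:92438780-92439029, minus strand.
Lor: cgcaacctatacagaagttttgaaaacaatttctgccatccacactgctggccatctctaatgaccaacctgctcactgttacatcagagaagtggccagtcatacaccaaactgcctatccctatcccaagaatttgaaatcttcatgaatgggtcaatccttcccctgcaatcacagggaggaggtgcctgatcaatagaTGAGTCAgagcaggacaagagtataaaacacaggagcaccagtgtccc
Flg2: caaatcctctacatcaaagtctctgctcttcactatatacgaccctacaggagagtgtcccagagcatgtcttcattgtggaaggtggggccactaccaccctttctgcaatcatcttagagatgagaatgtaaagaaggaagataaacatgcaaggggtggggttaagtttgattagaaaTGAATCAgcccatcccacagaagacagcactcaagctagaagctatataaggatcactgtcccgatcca
Sprr1b: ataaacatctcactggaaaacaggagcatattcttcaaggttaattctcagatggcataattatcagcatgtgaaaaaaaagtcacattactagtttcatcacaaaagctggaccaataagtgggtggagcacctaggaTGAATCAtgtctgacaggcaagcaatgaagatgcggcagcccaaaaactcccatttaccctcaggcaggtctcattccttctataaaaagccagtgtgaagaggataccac
The matches begin 48, 69 and 111 bases before the start. On either strand, 6.75% of 32851 promoters of this length held TGANTCA, as did those of 5 of 28 matched granular and cornified genes, 4 of 13 matched stress and alarmin genes, 139 of 1976 matched higher genes and 125 of 1482 matched lower genes. A match in these letters is a description and no evidence of binding, and the motif stood before genes of both directions.

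Genes of the upper follicle, the infundibulum and junctional zone above the sebaceous gland, were mostly higher. Of 10 such genes, 8 were higher and 1 lower (median 2.35, 0.80 to 4.61). Krt79, a keratin of the cells that line the follicle opening, was at 510 CPM in WT and 12486 CPM in Scd1-/- (4.61, 4.58 to 4.65). Cst6, a cystatin that restrains cathepsins and legumain in the cornifying follicle, was at 317 and 9538 CPM (4.91), Plet1 at 32.7 and 333 CPM (3.34) and Gata6, a factor of the sebaceous duct, at 22.1 and 83.6 CPM (1.91). The exception was Lgr6, the receptor that marks stem cells of the isthmus and epidermis, with 1064 counts in WT and 7 in Scd1-/- (-6.70, -8.36 to -5.99). Defb6, a beta-defensin in this list, was at 52.5 and 842 CPM (4.0) and was also higher at P1 (log2 fold change 1.55 ± 0.15 SE, edgeR adjusted p = 0.00701). In bulk samples, more cells of a type and more RNA per cell cannot be told apart.

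Of 12 bulge stem cell genes, 6 were higher and 1, Krt15, was lower (median 1.09, -0.00 to 2.46). Sox9, the factor that sets up the stem cells of the follicle, was at 75.1 and 525 CPM (2.80), Tcf7l1 at 5.62 and 31.6 CPM (2.46) and Lhx2 at 25.2 and 80.3 CPM (1.67). Cd34, the surface marker of the bulge, had 46 and 194 counts (2.23), whereas Lgr5 and Nfatc1 had log2 ratios of 0.39 and -0.00. The summed level of the list ran the other way, 3992 CPM in WT and 1746 CPM in Scd1-/-, because Krt15 held most of it in WT.

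Basal keratinocyte genes split. Of 14, 3 were higher and 6 lower, with a median of -0.44 (-2.58 to 1.69). Besides Krt14 and Krt5, Sfn (stratifin, the 14-3-3 protein of keratinocytes) was higher, at 432 and 3675 CPM (3.09), whereas Igfbp3, a basal binder of insulin-like growth factors, was at 186 and 15.3 CPM (-3.59) and the collagen Col17a1, an anchor of hemidesmosomes, at 2312 and 387 CPM (-2.58). Of 14 spinous genes, 2 were higher and 3 lower (median 0.13), with Lypd3 at 207 and 1008 CPM (2.28). Both lists thus held genes of either direction.

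**Figure D4:**
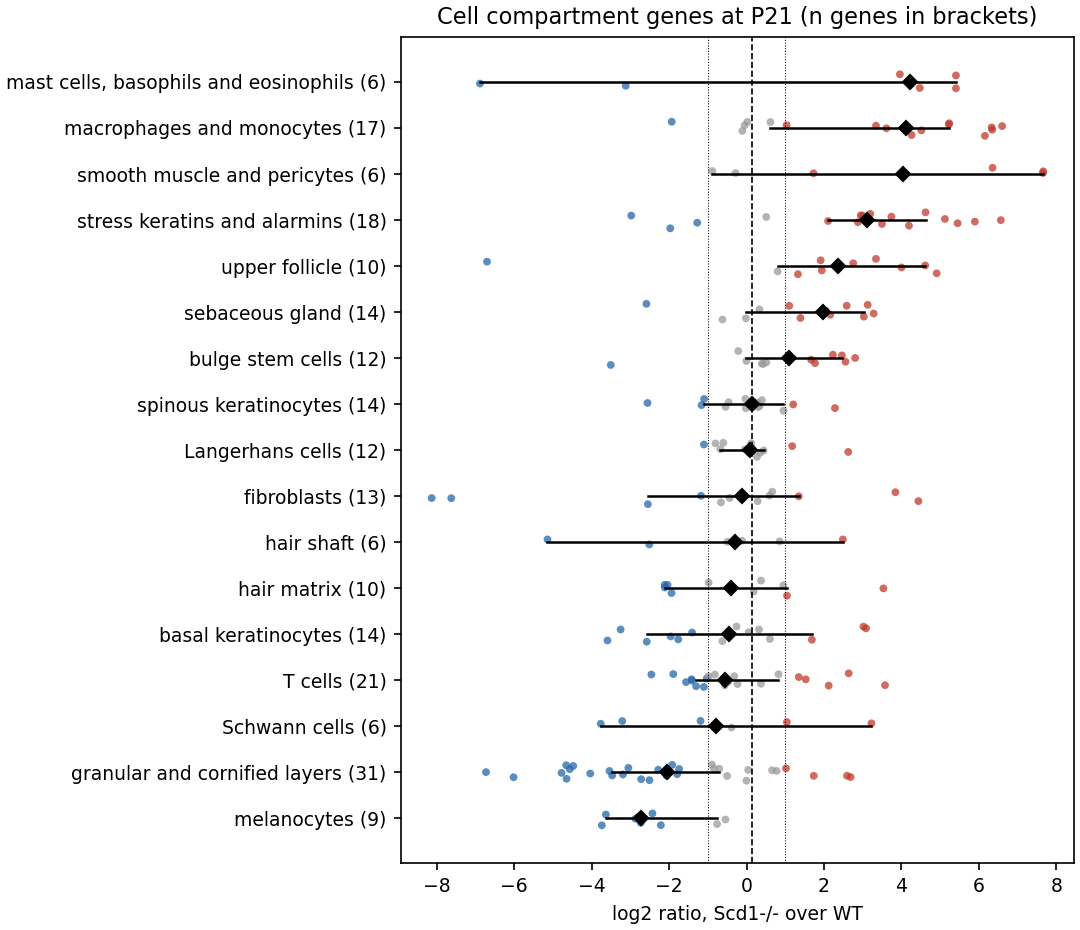
Log2 ratio at P21, Scd1-/- over WT, of every gene with 50 or more counts in 17 cell compartment lists (red higher, blue lower by at least 2-fold, grey between; number of genes in brackets). Diamonds are list medians, bars their 95% intervals over genes, the dashed line the median of all genes (0.15) and dotted lines 2-fold; macrophage, stress keratin and upper follicle lists lie to the right, granular and melanocyte lists to the left.

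Genes of the actin cytoskeleton that differed by 2-fold were all higher in Scd1-/-. Of 30 actomyosin genes and targets of YAP, the mechanosensitive coactivator, 16 were higher and 0 lower (median 1.25, 0.40 to 2.19). The cytoplasmic actins Actb and Actg1 were at 749 and 623 CPM in WT and at 3798 and 4136 CPM in Scd1-/- (2.34 and 2.73). Tpm1 and Tpm2, tropomyosins that wrap actin filaments, had log2 ratios of 3.35 and 4.69, the actin bundler Fscn1 one of 5.51 (79 and 3192 counts) and Fhl2, a coactivator of serum response factor, one of 5.75 (22 and 1126 counts). The contractile genes were near the detection limit in WT: Myl9, a regulatory myosin light chain, had 5 counts there and 1251 in Scd1-/- (7.66, 6.95 to 9.80), and Cnn1 had 0 and 150, at least 57.7-fold higher. Among the 7 YAP targets, 2 were higher and 0 lower (median 0.24), so the larger ratios lay in the actomyosin genes (14 of 23 higher, median 1.85).

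Acta2, Cnn1 and Myl9 are also genes of smooth muscle and pericytes. Acta2, the smooth muscle actin, had 14 counts in WT and 2825 in Scd1-/- (7.66, 7.12 to 8.74). Of the 18 genes of that list, 6 had 50 or more counts, of which 4 were higher and 0 lower (median 4.04), and its summed level was 123 CPM in WT and 561 CPM in Scd1-/-. The defining muscle genes did not follow: Myh11 had 6 and 0 counts and Des 1 and 0, the pericyte gene Pdgfrb had 9 and 5, and Mylk was at 23.0 and 12.4 CPM. Tagln, another contractile gene, had 12 and 14 counts. Acta2, Cnn1 and Myl9 were thus higher while Myh11 and Des were at or near 0.

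The promoters of Myl9 and Actg1 are shown because each holds the letters of a CArG box, the sequence that serum response factor is known to bind. They are the 250 bases before the RefSeq start (GRCm38.p6), with the match in capitals; Myl9 is at chr2:156775214-156775463, plus strand, and Actg1 at chr11:120348496-120348745, minus strand.
Myl9: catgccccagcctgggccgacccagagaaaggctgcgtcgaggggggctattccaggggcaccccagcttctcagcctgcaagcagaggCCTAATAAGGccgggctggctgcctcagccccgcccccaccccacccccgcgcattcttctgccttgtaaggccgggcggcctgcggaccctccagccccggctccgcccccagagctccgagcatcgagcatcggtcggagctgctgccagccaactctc
Actg1: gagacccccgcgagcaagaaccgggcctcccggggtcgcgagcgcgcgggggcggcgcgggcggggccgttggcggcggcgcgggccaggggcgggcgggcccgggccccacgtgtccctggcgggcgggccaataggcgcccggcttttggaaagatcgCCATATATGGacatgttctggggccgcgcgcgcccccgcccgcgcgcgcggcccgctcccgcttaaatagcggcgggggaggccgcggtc
The matches begin 161 and 90 bases before the start. A CArG box stood on either strand in 1.47% of 32851 promoters of this length and in those of 4 of the 20 matched actomyosin genes, the others being Myl6 and Srf. Acta2 had no such letters in this window. The gene for serum response factor itself, Srf, was at 42.8 and 121 CPM (1.5).

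Cell junction genes were mixed. Of 15 desmosome genes, 6 were higher and 1 lower (median 0.82), with Dsg3, the desmoglein of basal cells, at 159 and 626 CPM (1.97) and periplakin (Ppl), which links desmosomes to the cornified envelope, at 1043 and 434 CPM (-1.26). Of 26 tight, adherens and gap junction genes, 9 were higher and 4 lower (median 0.63). The connexins Gjb2 and Gja1, channels between neighbouring cells, were at 22.8 and 350 CPM in WT and at 546 and 3628 CPM in Scd1-/- (4.58 and 3.37), while cingulin (Cgn), a tight junction protein of the granular layer, was at 212 and 31.3 CPM (-2.75).

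Among genes of attachment to the basement membrane, more passed 2-fold lower than higher. Of 9 hemidesmosome genes, 5 were lower and 1 higher (median -1.12, and -0.53 after adjustment for length). Of 23 basement membrane genes, 14 were lower and 2 higher (median -1.65, -2.0 to -0.03). The minimum count was reached in the WT library alone by 6 of these 23, for which it largely fixed the direction, and in the Scd1-/- library alone by 0. Nephronectin (Npnt), a basement membrane ligand of integrins, was at 27.2 and 2.95 CPM (-3.16) and the collagen Col4a6 at 86.1 and 10.8 CPM (-2.98). The 2 higher genes were Lamb1 and Col18a1, with log2 ratios of 2.87 and 2.59. Of 36 integrin and focal adhesion genes, 14 were higher and 7 lower (median 0.39), a median whose sign turned under library size scaling (-0.05). Among matricellular and elastic matrix genes, 9 of 22 were higher and 5 lower (median 0.63).

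Genes of matrix proteases, their inhibitors and the plasminogen system were higher in 12 and lower in 3 of 22 cases (median 1.30). The minimum count was reached in the Scd1-/- library alone by 6 of the 22. Metalloproteinases were higher in 5 and lower in 3 of 14 cases (median 0.45). Inhibitors were higher in 4 and lower in 0 of 5 cases, and plasminogen system genes in 3 and 0 of 3. Mmp12, the macrophage elastase, had 4 counts in WT and 409 in Scd1-/- (6.27, 5.52 to 8.77). The inhibitors Timp3 and Timp2 were at 21.6 and 38.8 CPM in WT and at 230 and 317 CPM in Scd1-/- (3.40 and 3.03), and Serpine2, an inhibitor of plasminogen activators, had 44 and 849 counts (4.41). Mmp28, a metalloproteinase of keratinocytes, was lower (34.7 and 3.48 CPM, -3.27).

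Macrophage genes formed the immune group with the most higher genes. Of 17 genes of macrophages and monocytes, 12 were higher and 1 lower (median 4.11, 0.62 to 5.24), 10 reached 50 counts in the Scd1-/- library alone, and their summed level was 269 CPM in WT and 787 CPM in Scd1-/-. Lyz2, the lysozyme of myeloid cells, had 41 counts in WT and 3626 in Scd1-/- (6.60, 6.23 to 7.16), and the complement genes C1qb and C1qc had 13 and 8 in WT and 934 and 705 in Scd1-/-. Mrc1, the mannose receptor of dermal macrophages, had 8 and 329 counts (5.24) and Ccr2, the receptor of recruited monocytes, 15 and 553 (5.22). The genes that macrophages share with Langerhans cells did not differ by 2-fold: Csf1r was at 176 and 164 CPM, Adgre1 at 26.6 and 25.7 CPM and Cx3cr1 at 22.9 and 23.2 CPM. Arg1, a gene of alternative activation that keratinocytes also use, was the lower one (244 and 54 counts, -1.93).

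Of 12 Langerhans cell genes, 2 were higher and 1 lower (median 0.09), with langerin (Cd207) at 86.4 and 49.5 CPM (-0.80) and the antigen presentation genes Cd74 and H2-Aa at log2 ratios of 0.06 and 0.35. Of 21 T cell genes, 8 were lower and 5 higher (median -0.56, -1.30 to 0.83). The genes of the dendritic epidermal T cells, Trdc and Tcrg-C1, which encode constant regions of the gamma-delta receptor, were at 140 and 95.6 CPM in WT and at 52.6 and 38.7 CPM in Scd1-/- (-1.41 and -1.30). Genes of alpha-beta T cells went the other way at low counts: Trac had 54 and 122 and Foxp3, the factor of regulatory T cells, 11 and 69 (2.64, 1.93 to 3.92).

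Of 14 measured genes of mast cells, basophils and eosinophils, 8 had under 50 counts in both libraries, among them Tpsab1 (0 and 2), Fcer1a (0 and 5) and Hdc (20 and 22). Of the other 6, the 4 higher reached the minimum in the Scd1-/- library alone and the 2 lower in the WT library alone, so each had to differ. The mast cell protease genes Cma1 and Tpsb2 each had 0 counts in WT and 77 in Scd1-/-, at least 29.6-fold higher, and Mcpt4 had 2 and 78 (4.48, 3.59 to 8.56). Mrgprb2, the receptor through which mast cells sense peptides, was opposite, with 934 and 5 counts (-6.89), as were the other 3 Mrgprb genes with 50 or more counts, whereas Mrgprb1 had 0 and 4; 1450 counts in WT and 11 in Scd1-/- fell to the pseudogene Mrgprb11-ps. The Mrgprb2 counts therefore did not follow the mast cell proteases.

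Of 42 cytokine and receptor genes, 13 were higher and 12 lower (median -0.20). By role, 9 of 12 chemokines were higher and 1 lower (median 2.35, -0.30 to 3.90), and 2 of 21 receptors were higher and 5 lower, a difference that was not tested. A further 16 chemokines were under the minimum, and 4 of the 12 reached it in the Scd1-/- library alone. Ccl9, a chemokine of myeloid cells, had 1 and 307 counts (6.83, 5.98 to 13.78), and Ccl8 had 0 and 127, at least 48.9-fold higher. Cxcl12, which holds and guides CXCR4-bearing cells, was at 38.1 and 571 CPM (3.90) and Ccl22, a ligand of CCR4, had 57 and 653 counts (3.68). Among the receptors, both chains of the interleukin-6 receptor were lower, Il6ra at 260 and 55.2 CPM (-2.23) and Il6st at 245 and 57.3 CPM (-2.09), as was Il20ra (69.8 and 2.48 CPM, -4.75). Il33, the nuclear alarmin, was at 23.5 and 3.08 CPM (-2.88). Of 24 interferon-stimulated genes, 3 were higher and 1 lower (median 0.04), close to the median of all genes.

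Of 9 melanocyte genes, 7 were lower and 0 higher (median -2.73, -3.63 to -0.76), with a summed level of 333 CPM in WT and 58.0 CPM in Scd1-/-. The minimum count was reached in the WT library alone by 4 of the 9, for which it largely fixed the direction. Dct and Pmel, genes of melanin synthesis and of its fibrils, were at 147 and 58.1 CPM in WT and at 10.9 and 8.23 CPM in Scd1-/- (-3.74 and -2.80). Of 6 Schwann cell genes, 3 were lower and 2 higher (median -0.79), and 2 reached the minimum in the WT library alone and 1 in the Scd1-/- library alone.

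Compartments of the growing follicle had few genes above the minimum. Of the hair shaft list, 73 of 79 measured genes had under 50 counts in both libraries, and of the other 6, 1 was higher and 2 lower. Of those 6, 3 reached 50 counts in the WT library alone and 1 in the Scd1-/- library alone. All 4 inner root sheath genes above the minimum were lower (median -1.65), but 3 of the 4 reached it in the WT library alone. Among 10 hair matrix genes, 2 were higher and 4 lower (median -0.40), with the hair differentiation factor Hoxc13 at 8.75 and 103 CPM (3.54). Of 13 fibroblast genes, 3 reached the minimum in the Scd1-/- library alone and 4 in the WT library alone, so the minimum largely fixed their direction. Of the 13, 3 were higher and 4 lower (median -0.11). The lower ones included Tnxb and Efemp1, with 4814 and 1335 counts in WT and 13 and 4 in Scd1-/-, whereas the defining fibroblast genes were near the limit in both: Pdgfra had 32 and 23 counts, Dcn 14 and 7 and Lum 0 and 5. Col1a1 had 83 and 88 counts.

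Other cell types were hardly detected. Pecam1 and Adipoq, which define endothelium and adipocytes, had 44 and 48, and 0 and 0 counts. Lists with at most 3 genes above the minimum were Merkel cells (1 of 1 higher), dermal papilla (2 higher and 1 lower of 3), skeletal muscle (1 of 3 higher), adipocytes (2 of 2 higher), endothelium (1 of 2 higher), neutrophils (1 of 1 lower) and B cells (0 of 1). The lone neutrophil gene was Mmp9, and the other 14 of its list were under the minimum. Of those, Csf3r had 0 and 25 counts, Clec4e 0 and 24 and Clec4d 6 and 25, whereas Fpr1 had 1 and 0. All 5 erythroid genes were higher (median 1.47, 0.31 after adjustment for length), at a summed level of 270.4 CPM in WT and 696 CPM in Scd1-/-. Which of the immune and contractile genes came from cells carried along in the digest was not tested.

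Sebaceous gland genes were mostly higher at P21. Of 14, 10 were higher and 1 lower (median 1.97, -0.02 to 3.03), and 4 of the 14 reached 50 counts in the Scd1-/- library alone. Elovl3, an elongase of sebum lipids, had 74 counts in WT and 640 in Scd1-/- (3.28, 2.97 to 3.69), Cidea, a lipid droplet protein, 106 and 561 (2.59) and Awat2, a wax ester synthase, 34 and 123 (2.0). The droplet coat gene Plin2 was at 33.3 and 129 CPM (1.95). Pparg, the master regulator of sebocytes, had 50 and 55 counts (0.33, -0.23 to 0.93), and Acsbg1, an acyl-CoA synthetase also made by the epidermis, was at 1241 and 206 CPM (-2.59) and set the summed level of the list (1449 and 774 CPM).

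At P1, where 2 libraries per genotype allowed a test, edgeR's quasi-likelihood test called 23 of 15554 genes higher (0.148%) and 22 lower (0.141%) in Scd1-/- at an adjusted p under 0.05. The median P1 log2 fold change of the 14 sebaceous genes was -1.07, and 5 of them were called lower. Among them were Fa2h, which hydroxylates fatty acids (-2.92 ± 0.22 SE, adjusted p = 0.00235), and Far2, which makes the fatty alcohols of wax esters (-2.0 ± 0.20 SE, adjusted p = 0.00701), whereas at P21 their log2 ratios were 1.10 (481 and 897 counts) and 1.39 (505 and 1151 counts), or 0.66 and 0.95 under library size scaling. Of the 12667 P21 genes tested at P1, 5 were called higher and 18 lower, 23 in all. This count rested on the fit: it was 419 with labelled sex as a block, 670 and 284 without the WT library labelled female or male, and 69 and 44 without the Scd1-/- one. Among the 2602 higher at P21, 2 were called higher and 9 lower at P1, and among the 2007 lower at P21, 2 higher and 5 lower. Krt17 and Krt6a had P1 log2 fold changes of 0.49 ± 0.17 (SE, adjusted p = 0.649) and 0.78 ± 0.15 (SE, adjusted p = 0.124), and Lor and Flg2 of 0.02 ± 0.22 (SE, adjusted p = 1) and 0.25 ± 0.20 (SE, adjusted p = 1). The difference between the ages was not tested.

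**Figure D5:**
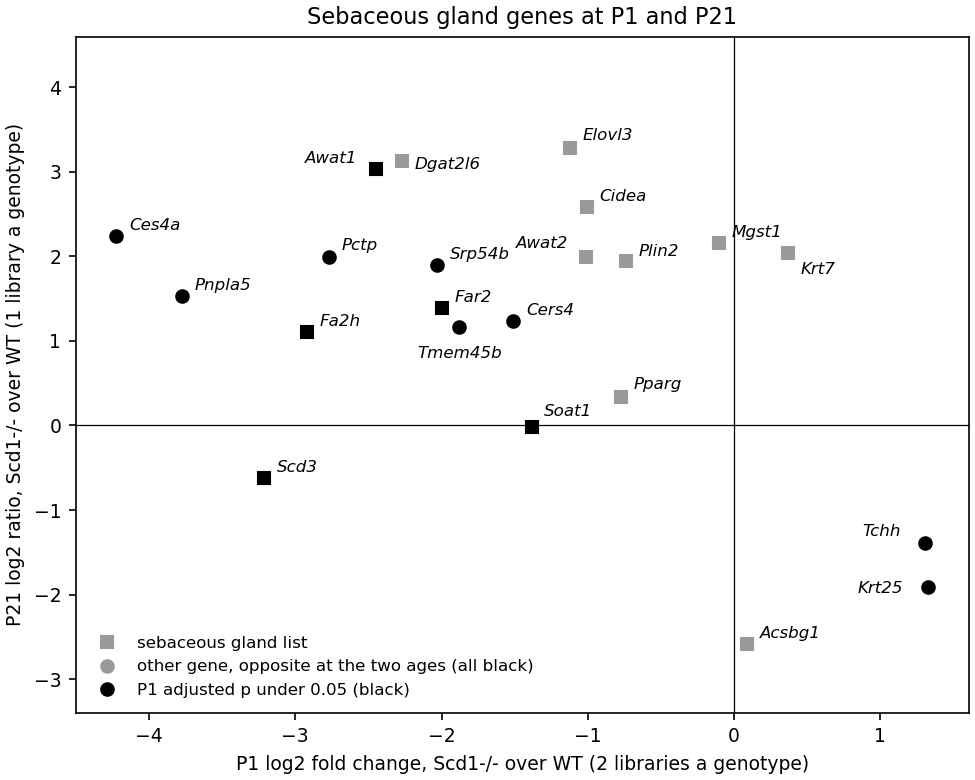
Log2 ratio at P21 (vertical, 1 library per genotype) against log2 fold change at P1 (horizontal, 2 libraries per genotype), Scd1-/- over WT, for the sebaceous gland genes (squares) and for further genes called at P1 that lay past 2-fold in the other direction at P21 (circles). Black marks an adjusted p under 0.05 at P1; Awat1, Fa2h and Far2 were lower at P1 and higher at P21, and Tchh and Krt25 the reverse.

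Of 32 enzymes of fatty acid synthesis and desaturation, a list that leaves out the deleted Scd1, 15 were higher and 0 lower (median 0.76, 0.20 to 1.23). Fads3, a desaturase of sphingoid bases, was at 35.8 and 193 CPM (2.43), and the desaturases of ceramide synthesis Degs1 and Degs2 were at 73.7 and 1.57 CPM in WT and at 240 and 22.5 CPM in Scd1-/- (1.70 and 3.74). Fasn, the fatty acid synthase, was at 217 and 231 CPM (0.09). Cholesterol synthesis had 13 higher and 0 lower of 25 genes (median 1.37, 0.58 to 1.77). Idi1, the isopentenyl diphosphate isomerase, was at 10.5 and 58.1 CPM (2.46), and Hmgcs1, the synthase that makes HMG-CoA, was at 226 and 243 CPM (0.10). The median of this list at P1 was 0.14.

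Fatty acid handling was less uniform. Of 16 uptake and activation genes, 6 were higher and 5 lower (median 0.57), with the epidermal fatty acid-binding protein Fabp5 at 111 and 1316 CPM (3.56), the scavenger receptor Cd36 with 20 and 255 counts (3.74) and the transporter Slc27a2 with 329 and 5 (-5.39). Of 37 genes of fatty acid oxidation and targets of PPAR, 11 were higher and 4 lower (median 0.40, -0.04 under library size scaling and 0.21 after adjustment for length). Of 31 triglyceride, wax ester and droplet genes, 8 were higher and 6 lower (median 0.21), among them the lipases of the granular layer Lipn (35.1 and 2.21 CPM) and Lipm (383 and 101 CPM). Apolipoprotein E (Apoe), named here after its level was seen, was at 3528 CPM in WT and 23289 CPM in Scd1-/- (2.72).

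Ceramide and barrier lipid genes lay in both directions. Of 15 synthesis genes, 8 were higher and 1 lower (median 1.01, -0.74 to 1.23), and of 21 genes of processing and transport 4 were higher and 5 lower (median -0.20, -0.90 to 0.31), 12 and 6 of 36 in all. The intervals of the medians overlap, and their difference was not tested. The lipoxygenases Aloxe3 and Alox12b, which oxidise the linoleate of acylceramides, were at 418 and 102 CPM in WT and at 15.3 and 14.5 CPM in Scd1-/- (-4.76 and -2.81). Sdr9c7, the dehydrogenase of the same route, was at 87.8 and 8.77 CPM (-3.31), Smpd3, a sphingomyelinase, at 64.9 and 1.34 CPM (-5.47) and Abca12, the transporter that loads lamellar granules, with 5735 and 2191 counts (-1.18). Among 19 eicosanoid genes, 5 were higher and 5 lower (median -0.22).

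Retinoid genes lay in both directions. Of 21 retinoid genes, 10 were higher and 5 lower (median 0.78, -0.45 to 3.40). The minimum count was reached in the Scd1-/- library alone by 3 of the 21 and in the WT library alone by 5. For those genes the minimum largely fixed the direction. Of the dehydrogenases that make retinoic acid, Aldh1a2 had 62 counts in WT and 4114 in Scd1-/- (6.21, 5.90 to 6.65), while Aldh1a1 was lower, with 137 and 13 counts. The retinol handling genes Stra6, an uptake receptor, and Lrat, which esterifies retinol, had 6 and 4 counts in WT and 584 and 297 in Scd1-/- (6.38 and 5.81), and the binding protein Crabp2 was at 33.9 CPM in WT and 358 CPM in Scd1-/- (3.39). Cyp26b1, which degrades retinoic acid, was lower, with 759 and 35 counts (-4.16). Stra6 and Lrat reached the minimum count in the Scd1-/- library alone, and Aldh1a1 and Cyp26b1 in the WT library alone. The 3 receptors measured did not pass 2-fold, for example Rarg at 261 and 262 CPM. Stra6 had a P1 log2 fold change of 1.39 ± 0.23 (SE, edgeR adjusted p = 0.0749).

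In the EGFR pathway, which drives keratinocyte growth and migration, ligands moved in both directions. Of 9 ligands, 4 were higher and 3 lower, and of 23 genes in all, 7 and 7 (median 0.08). Hbegf, Epgn, Areg and Nrg1 had 80, 76, 34 and 18 counts in WT and 2233, 1227, 272 and 407 in Scd1-/-. Btc was the opposite, at 250 and 25.0 CPM (-3.32). The receptor Egfr was at 157 and 167 CPM (0.08), and the feedback phosphatase Dusp6 at 18.6 and 202 CPM (3.43). The ligands thus differed in both directions while the 3 receptors lay within 2-fold.

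In the Wnt pathway, which drives follicle growth, members of each role lay in both directions. Of 12 ligands, 8 were lower and 3 higher (median -1.87), and of 16 receptors 8 were higher and 3 lower (median 0.98), within 16 higher and 18 lower of 47 Wnt genes. The minimum count was reached in the WT library alone by 4 of the ligands and 2 of the receptors. In the Scd1-/- library alone it was reached by 1 of each. For these genes the minimum largely fixed the direction. Wnt3a had 235 and 0 counts, at least 67.8-fold lower, Wnt16 547 and 6 (-5.92) and Wnt3 was at 72.6 and 11.8 CPM (-2.61). The receptors Fzd1 and Fzd7 were at 41.9 and 67.7 CPM in WT and at 209 and 307 CPM in Scd1-/- (2.31 and 2.18). Axin2, the common feedback target, was at 91.8 and 32.9 CPM (-1.48).

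Of 32 BMP and TGF-beta genes, 11 were higher and 10 lower (median 0.11). Of the 11 ligands in this list, 4 reached the minimum count in the WT library alone and 1 in the Scd1-/- library alone. For these the minimum largely fixed the direction. The activin subunit gene Inhba, which wounded skin is known to express, had 5 and 486 counts (6.30, 5.58 to 8.44) and Inhbb 373 and 2419 (2.90). Bmp4, Bmp3 and Bmp2, signals of the resting follicle and skin, had 257, 471 and 256 counts in WT and 24, 16 and 32 in Scd1-/-, whereas Bmp7 was at 36.9 and 212 CPM (2.52). Among Notch genes (4 higher and 2 lower of 11, median 0.28), the ligands Jag2 and Dll1 of the basal layer were at 354 and 67.9 CPM in WT and at 37.0 and 5.69 CPM in Scd1-/- (-3.25 and -3.55). Jag1 was at 122 and 410 CPM (1.75) and the target Hes1 at 51.2 and 206 CPM (2.0). Of 9 Hedgehog genes, 2 were higher and 3 lower (median -0.40), with the receptor and target Ptch1 at 44.6 and 21.2 CPM (-1.07).

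Insulin, FoxO and mTOR genes were more often lower, 11 of 27 against 1 higher (median -0.73, -1.13 to -0.15). The adaptor Irs1 had 370 and 18 counts (-4.02), the receptor Igf1r was at 111 and 44.4 CPM (-1.32) and Txnip, a FoxO and glucose-responsive gene, with 18581 and 5854 counts (-1.46). Circadian clock genes were lower in 10 and higher in 3 of 19 cases (median -1.09, -2.17 to -0.44). Npas2, Per3 and Rora were at 12.5, 63.3 and 214 CPM in WT and at 1.07, 9.10 and 31.7 CPM in Scd1-/-. The hours at which the mice were sampled were not given in the sources used here.

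Of 50 cell cycle genes, 10 were higher and 0 lower (median 0.51, and 0.07 under library size scaling). The proliferation markers Mki67 and Top2a were at 108 and 91.5 CPM in WT and at 88.8 and 69.0 CPM in Scd1-/- (-0.28 and -0.41), and Mybl2 had 90 and 370 counts (2.22). The sign of the median was therefore not that of the usual markers.

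Housekeeping groups of short genes were mostly higher. Of 74 nuclear genes of oxidative phosphorylation, 65 were higher and 1 lower (median 1.53, 1.42 to 1.63), and of 79 cytosolic ribosomal protein genes 65 were higher and 0 lower (median 1.26, 1.158 to 1.283). After adjustment for length the medians were 0.78 and 0.52, and under library size scaling 1.09 and 0.82. Of the 13 mitochondrially encoded protein genes, 0 were higher, 1 was lower and 12 lay within 2-fold (median -0.57, and -1.58 after adjustment for length), and mitochondrially encoded RNA took 11.3% of the WT and 7.70% of the Scd1-/- counts.

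Of 20 glycolysis genes, 11 were higher and 1 lower (median 1.12), such as Pgk1 at 88.8 and 431 CPM (2.28) and Eno1 with 3455 and 14381 counts (2.26). Of 32 genes of the unfolded protein and integrated stress responses, 15 were higher and 0 lower (median 0.99), with the chaperone Hspa5 at 144 and 505 CPM (1.81) and Cebpb at 66.4 and 384 CPM (2.53). Of 30 immediate early and heat shock genes, 15 were higher and 0 lower (median 1.02). Egr2 was at 65.1 and 519 CPM (2.99), whereas Fos, an AP-1 subunit gene that tissue dissociation is known to induce, was at 156 and 114 CPM (-0.46). Of 24 antioxidant genes and NRF2 targets, 13 were higher and 3 lower (median 1.13). Gpx2, a glutathione peroxidase of stressed epithelia, had 52 counts in WT and 3514 in Scd1-/- (6.23, 5.89 to 6.71), while Txnrd1, another target, was at 188 and 59.2 CPM (-1.67).

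Among genes whose 2 libraries averaged 20 CPM or more, the 20 highest and 20 lowest ratios added a few further genes to those above. Klk6, a kallikrein protease of inflamed skin, had 101 counts in WT and 9573 in Scd1-/- (6.74, 6.49 to 7.07). Pi15 and Nes, a protease inhibitor and the filament protein nestin, had 31 and 29 counts in WT and 1163 and 1090 in Scd1-/- (5.34 each). At the lower end, the chemokine scavenger Ackr4 had 1996 and 28 counts (-5.86), Adamts14, a procollagen protease, 1881 and 25 (-5.92), Antxr1, a collagen-binding receptor, 1250 and 13 (-6.19) and Cdh13, a cadherin without a cytoplasmic tail, 1393 and 20 (-5.79). Calcb, which encodes a calcitonin gene-related peptide, had 884 and 12 (-5.79). In all, 239 genes were at least 10-fold higher and 242 at least 10-fold lower, of which 22 had 0 counts in WT and 16 had 0 in Scd1-/-.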

How the data were processed

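Total RNA of 6 epidermal cell preparations was sequenced from NEBNext Ultra libraries. Per the submitters' processing notes, reads were mapped to GRCm38 (mm10) with HISAT2 2.0.5 and counted per gene with featureCounts 1.5.0-p3, and the authors deposited the raw count of each gene and library; the strand setting and the annotation release were not given in the sources used here. The authors' DESeq2 1.16.1 fold changes and p-values, and 16 columns of FPKM and normalized values, were not used. The members and lists were chosen with earlier results of these data known.

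From the deposited counts, CPM and ratios were computed with TMM factors from edgeR 4.0.16 (1.17 for WT, 0.858 for Scd1-/-) in R 4.3.3 and Python 3.11.15. Genes with 50 or more counts in either P21 library were kept, log2 ratios used a prior count of 2, and 59 lists (26 compartments, 33 functions) were summarised by counts past 2-fold and medians. A median's interval comes from order statistics over genes. Counts of 0 were bounded with 3 counts. P1 libraries (2 per genotype) were tested with edgeR's quasi-likelihood test and, as an alternative, DESeq2 1.42.0, with Benjamini-Hochberg adjustment. Nothing in the labels says whether the P1 samples were separate litters, so these p-values measure only the spread between these samples. P1 and P21 tables were normalized separately. Scripts were tested on simulated data. Named genes were Scd1 to Scd4, genes the study names, the 20 highest and 20 lowest ratios at a mean of at least 20 CPM, and of each list the first 4 members and the 6 with the largest absolute ratio (656 genes); other names were chosen after their values were seen, as were gene families. Promoters are RefSeq's (GRCm38.p6). Some genes are not reported here.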

Additional observations from a re-analysis of the deposited data

Results flagged for a closer look

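For 11 genes, the P21 ratio lay past 2-fold in the direction opposite to a P1 fold change that passed edgeR's adjusted p of 0.05. With 1 library per genotype at P21, the difference between the ages was not tested. Under library size scaling 4 of the 11 (Far2, Cers4, Tmem45b and Fa2h) came under 2-fold at P21, with ratios of 0.95, 0.79, 0.73 and 0.66. Of the 11, 9 were lower in Scd1-/- at P1 and higher at P21. The wax ester synthase gene Awat1 had a P21 log2 ratio of 3.03 and a P1 log2 fold change of -2.45. The carboxylesterase gene Ces4a had 2.24 at P21 and -4.22 at P1, and Pctp, which carries phosphatidylcholine, had 2.0 and -2.77. Srp54b, a copy of the signal recognition particle gene, had 1.90 and -2.03, Pnpla5, a lipase, 1.53 and -3.77, and Far2 1.39 and -2.0. The ceramide synthase gene Cers4 had 1.23 and -1.51, Tmem45b 1.17 and -1.88, and Fa2h 1.10 and -2.92. The other 2, genes of the inner root sheath, were higher at P1 and lower at P21: trichohyalin (Tchh) had -1.38 at P21 and 1.30 at P1, and Krt25 had -1.91 and 1.33. The P21 counts of Krt25 were 71 in WT and 15 in Scd1-/-, against P1 levels of 128 to 438 CPM over the 4 libraries.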

How the results depend on the processing

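Against 2758 higher and 2110 lower genes, library size alone gave 1469 and 3436, a minimum of 10 counts 3888 lower (7360 in all), one of 200 counts 1285 lower, one of 1 count 4564 and 5814 (10378), a 1.5-fold limit 4426 and 3365 (7791), a 4-fold limit 721 and 760 (1481), and the length-adjusted ratio, added after seeing the data, 1681 higher. Of 50 list medians, library size alone turned 2 (integrins -0.048, fatty acid oxidation -0.040) and moved 7 outside their intervals (basement membrane -2.07, oxidative phosphorylation 1.09, mitochondrially encoded -1.01, ribosomal 0.82, cell cycle 0.069, insulin and FoxO -1.17, interferon -0.40). Upper quartile scaling moved 3 (1.40 for oxidative phosphorylation, -0.70 for mitochondrially encoded, 1.13 for ribosomal genes), and a minimum of 1 count moved stress keratins to 1.17. Length adjustment moved 5 (stress keratins 2.04, fatty acid oxidation 0.21, oxidative phosphorylation 0.78, mitochondrially encoded -1.58, ribosomal 0.52). All 472 named genes past 2-fold kept their direction under the 5 settings run on them, and 398 to 472 stayed past 2-fold, fewest with length adjustment. The 472 were picked at 2-fold, a log2 ratio of 1. Library size alone, the scaling that moved most, shifted the named genes by a median of -0.44. Scaling could therefore hardly turn a direction, and the kept directions are no check of it. At P1, a 1.5-fold limit gave 1348 genes apart in WT and 506 in Scd1-/-. The 23 P1 calls became 51 with DESeq2, 169 without a low-count filter, 419 with labelled sex as a replicate block, and 44 to 670 with a library left out, most without the WT library labelled female. A lone library was then assumed to vary like the other genotype. The replicate numbers at P1 mark labelled sex, not a shared litter. No paired analysis was possible at P21 because each genotype had 1 library. The cause of these changes was not tested. Genes near 50 counts have wide counting intervals, and no count here holds the spread between mice at P21.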

Other observations

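Gene families grouped after their values were seen differed from each other at P21. All 11 S100 genes with 50 or more counts were higher in Scd1-/- (median log2 ratio 2.88), against 21.3% of all 12972 genes. Among them were S100a6, a calcium-binding protein of many epithelia, at 96.1 CPM in WT and 1825 CPM in Scd1-/- (4.25), and S100a16, at 145 and 1066 CPM (2.88). S100b, S100a4, S100a8 and S100a9 reached 50 counts in the Scd1-/- library alone, with 14, 13, 9 and 10 counts in WT. The S100 genes are short, and the part of gene length in their ratios was not tested. Of 10 tubulin genes, the subunits of microtubules, 8 were higher and 0 lower (median 1.85), with Tubb2b at 138 and 1140 counts. Both beta-defensins, antimicrobial peptides, were higher (Defb1 694 and 2189 counts). Of 8 kallikreins, the proteases that cleave cornified cell junctions, 4 were higher and 2 lower, so Klk10 had 740 and 2893 counts and Klk9 568 and 85.

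All 6 Serpina3 genes, a cluster of protease inhibitors on chromosome 12 (104127996 to 104320725), were lower (median -4.02), the most abundant being Serpina3h with 4461 counts in WT and 303 in Scd1-/-. Serpina3b, Serpina3e-ps and Serpina3j reached 50 counts in the WT library alone. Of 13 Serpinb genes, 6 were lower and 2 higher (median -0.83). Serpinb7, an inhibitor of the cornifying epidermis, had 2658 and 160 counts, and Serpinb2 had 3229 and 713. Of 11 Skint genes, membrane proteins of the butyrophilin type, 6 were lower and 0 higher (median -1.07). Skint7, Skint6 and Skint5 had 4180, 2218 and 1899 counts in WT and 211, 134 and 69 in Scd1-/-. Skint1, the founding member of the family, had 800 and 1052 (log2 ratio 0.60) and Skint3 2510 and 2654 (0.29). Near-identical copies within these families could share reads, so single members are less certain than their families.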
